A study of Mus musculus with 27 samples.

Results

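The 53 genes described here encode the machinery of S phase and DNA replication. They were taken by name, from origin licensing to the checkpoint, and not by a cut on their measured values. Earlier results of these data were known when the list was made. On the arrays 51 of them had a probe set of their own, 65 probe sets in all, among 8251 genes measured. After a filter on mean intensity 40 members, with 44 probe sets, were tested among 5643 genes. The 11 measured members below the filter were Orc1, Orc2, Gmnn, Mcm6, Dbf4, Pole2, Rpa2, Dut, E2f3, Ccne2 and Hells, and their values are given without a test. Pole was not analysed here, and Tyms was not named because both of its probe sets carry the symbol of a Tyms pseudogene as well.

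The cells were NIH/3T3, an established line of mouse embryonic fibroblasts, measured on 27 Affymetrix U74v2 arrays with 1 array per sample. Before the experiment the serum of the cultures was lowered in steps. All 9 groups then shared a 2 h pulse of 15 µM forskolin, which activates adenylyl cyclase and raises cyclic AMP, in medium without serum, and serum-free culture after the rinse. The groups were 0 h, taken at the end of the pulse, and 6, 12, 18, 24, 30, 36, 42 and 48 h. Each held 3 arrays, from 3 experiments that the labels call biological replicates, and each flask was harvested once. No unpulsed cultures were analysed, so a change from 0 h is a change since the end of the pulse. The series followed the circadian course of transcripts, and the labels state that the medium change and the pulse were meant to bring both the cell cycles and the clocks of the cultures into step.

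Replication begins with licensing, in which the origin recognition complex, Cdc6 and Cdt1 load the Mcm2 to Mcm7 helicase onto DNA in G1. Cyclin E with Cdk2 and Cdc7 with Dbf4 then fire the origins, and polymerase alpha with primase, the PCNA clamp with its loader, and polymerases delta and epsilon copy the strands. Most of these genes are known targets of the E2F factors, which are held back by the retinoblastoma family in resting cells and released when growth factors drive cells through G1. In a fibroblast culture without serum, fewer cells in S phase and less of a transcript per cell cannot be told apart by these arrays.

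All 16 measured fibroblast markers passed the intensity filter, with a median log2 intensity of 12.87, against 2 of 9 epithelial, 5 of 9 muscle, 4 of 8 neuron and glia, 1 of 7 endothelial and 2 of 7 leukocyte markers. The medians of those other lists lay between 4.93 and 6.82, where the lowest mean kept by the filter was 6.77. Array medians ran from 166.8 to 200.7 in the deposited intensities. The actin 3′ to 5′ ratio, a measure of RNA integrity, was 1.35 to 1.70 on the 0 h arrays and 1.11 to 1.73 on the later ones. At 24 h 5 of the 16 fibroblast markers were higher than at 0 h, Col3a1 and Pdgfra among them, and 1 was lower, where 4.43% of all tested genes were higher and 2.91% lower. Of the other lists 1 muscle marker, Actc1, was lower. With the experiment fitted as a block, 6 fibroblast markers were higher and 2 lower, against 11.5% and 8.36% of all tested genes. In that fit 1 muscle marker was lower and 1 neuron and glia marker was higher. The part of these markers and of the RNA ratios in the results was not tested. Some arrays stand apart. The clock gene Nr1d2 went up from 6.24 at 18 h to 9.51 at 30 h in experiment 1. It went down over the same hours in the others, from 8.85 to 6.66 in experiment 2 and from 8.01 to 7.30 in experiment 3. The 12 h arrays of experiments 1 and 3 also carry another sample description than the rest. Counts of called members without these arrays are given further on for some comparisons. The values and adjusted p printed for single members at 12 h and 18 h include these arrays.

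As a group, transcripts of the 51 measured members were higher at the end of the pulse than from 12 h on. The median change of the 51 members from 0 h was −0.21 on the log2 scale at 6 h and −0.54 at 12 h. It reached −0.68 at 18 h, and was −0.60 after 24 h and −0.56 after 48 h. Over all 8251 genes, on arrays made alike by quantile normalization, the same median was 0.01 at 12 h, 18 h and 24 h. For 27 measured genes of other fork and origin proteins, outside the list, it was −0.19, −0.25 and −0.11 at these times. The highest of the 9 time means fell at 0 h for 29 of the 51 members, against 18.0% of all genes. Averaged from 18 h to 48 h, 36 of the 51 members were below 0 h in all 3 experiments, as were 21.9% of all genes. The heatmap of mean changes shows how widely the members differed at 24 h. Mcm5 was lowest at −2.02, followed by the untested Gmnn at −1.63 and by Pcna at −1.58. Orc6, Rfc1 and Pold2 were near 0, and E2f1 (0.30) and Msh6 (0.57), which were not called, were highest.

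**Figure D1:**
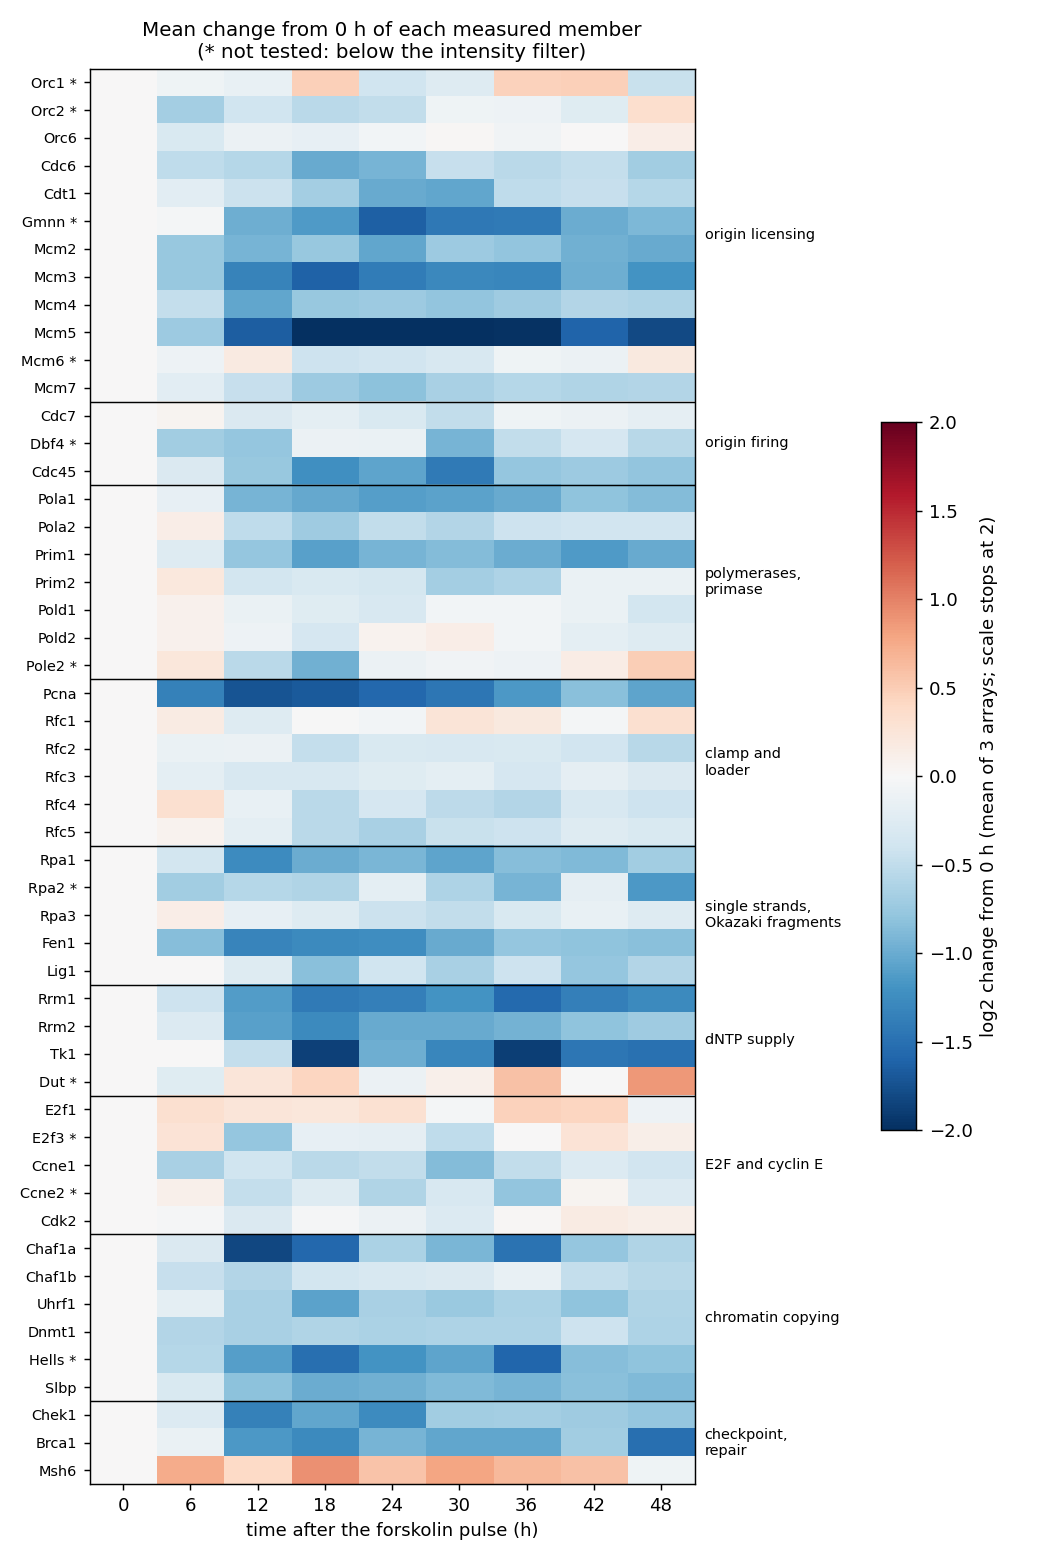
Mean log2 change from 0 h (colour, 3 arrays per time point) of the 51 measured members (rows, grouped by role) at each of the 9 time points (columns, h after the pulse). Blue is lower than at 0 h. Mcm5 stays between −2.05 and −1.60 from 12 h on, while Chaf1a goes from −1.82 at 12 h to −0.64 at 24 h.

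Tests were made with limma on log2 intensities, with a Benjamini-Hochberg adjusted p below 0.05 called a change. The experiments differed from each other throughout, so each comparison was fitted both without and with the experiment as a block, and both counts are given. At 6 h 1 of the 40 tested members was lower than at 0 h, and 6 with the block, where 2.53% and 7.12% of all tested genes were lower. At 12 h the counts were 11 and 18, against 3.76% and 9.85% of all genes. At 18 h they were 12 and 26, against 3.69% and 9.66%. At 24 h they were 7 and 23, against 2.91% and 8.36%, and at 48 h 6 and 24, against 3.31% and 9.59%. No member was higher than at 0 h at any of these 5 times in either fit. Of all tested genes 4.11%, 4.84%, 4.43%, 4.43% and 4.98% were higher at these times without the block, and 10.9%, 11.8%, 11.3%, 11.5% and 11.4% with it. The F test over the 9 time points called 6 members, Pola1, Pcna, Rpa1, Lig1, Rrm1 and Slbp, and 27 with the block, where 7.89% and 28.2% of all genes were called.

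The counts depend on the experiments. Without experiment 1 the fit without the block called 0 members at 6 h (9 at an unadjusted p below 0.05). For 12, 18, 24 and 48 h it called 7, 10, 8 and 7. Without experiment 2 the counts were 1, 4, 8, 4 and 6. Without experiment 3 they were 1, 2, 3, 2 and 0, with 7 members at an unadjusted p below 0.05 at 48 h. The F test gave 6, 4 and 0 members without experiments 1, 2 and 3 in turn (7 at an unadjusted p below 0.05 for the last), and 23, 11 and 6 with the block. With the block they were 5, 20, 26, 20 and 19 without experiment 1, then 3, 14, 14, 12 and 13 without experiment 2, and 3, 14, 15, 15 and 8 without experiment 3. Leaving out the 12 h arrays of experiments 1 and 3 left 2 members at 12 h, and 14 with the block. Leaving out the arrays of experiment 1 at 18 h and 30 h gave 9 members at 18 h, and 25 with the block.

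Counted without a model, all 3 later arrays lay below all 3 arrays of 0 h for 9 of the 51 measured members at 6 h and for 20 at 12 h. The number was 24 at 18 h, then 21 at 24 h, and 10 by 48 h. Over all measured genes the share was 8.64%, 9.48%, 8.84%, 8.73% and 8.82% at the same times. At 6 h the 9 were Pcna, Fen1, Mcm4, Rpa1, Dnmt1, Chaf1b, Slbp, Dbf4 and Orc2. At 24 h 3 of the 21 were too dim for the test, namely Orc2, Gmnn and Hells.

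Promoters were read to show what the members share in sequence. RefSeq promoters of 300 bases (250 before and 50 after the annotated start, build GRCm38.p6) were matched by symbol for 47 members, 58 promoters in all since some genes have several starts. They were searched on both strands for 4 spellings of the E2F element, namely TTCCCGC, then TTGGCGC, then TTGCCGC and lastly TTCGCGC. At least 1 match was found in 31 of the 47 members (65.96%), against 17.6% of the 6573 array genes with a promoter and 10.9% of all 27025 genes. The cell cycle homology region of G2 and mitosis promoters, searched as TTTGAA and as TTCGAA, was matched in 10 members (21.3%) and in 31 of 42 G2 and mitosis genes (73.8%), against 17.5% of array genes. Of those G2 and mitosis genes 10 (23.8%) had an E2F match. The CCAAT letters were matched in 28 members (59.6%) and 42.5% of array genes, and they overlapped an E2F match in the promoters of Mcm7, Prim1 and Rfc1. Among the members called lower at 24 h with the block, 15 of 22 with a promoter (68.2%) had an E2F match, and among the tested members not called, 10 of 15 (66.7%). The shares of called and not called members were close, and a match is a description of letters and not a binding site.

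The promoters of 5 members with large changes are shown in lower case, 5′ to 3′, with E2F matches in capitals, to set windows with several matches beside 1 with none. Mcm5 (chr8:75109259-75109558, + strand) has matches starting at −164, −152 and −149, counted from the start base as 0, and the latter 2 overlap. Mcm3 (chr1:20820263-20820562, − strand) has them at 19, 39 and 42, past the start, the latter 2 overlapping. Pola1 (chrX:93632106-93632405, − strand) has 4, at −169, −138, −121 and 15, and Rrm1 (chr7:102441445-102441744, + strand) has 1, at −67. Pcna (chr2:132253131-132253430, − strand), the only member called at 6 h without the block, has none of these letters in the window.
Mcm5: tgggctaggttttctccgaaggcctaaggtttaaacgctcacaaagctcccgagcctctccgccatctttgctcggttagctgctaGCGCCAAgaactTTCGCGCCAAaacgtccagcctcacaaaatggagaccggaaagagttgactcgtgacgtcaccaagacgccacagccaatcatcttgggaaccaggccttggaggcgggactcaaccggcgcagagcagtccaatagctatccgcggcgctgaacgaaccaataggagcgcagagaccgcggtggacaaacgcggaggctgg
Mcm3: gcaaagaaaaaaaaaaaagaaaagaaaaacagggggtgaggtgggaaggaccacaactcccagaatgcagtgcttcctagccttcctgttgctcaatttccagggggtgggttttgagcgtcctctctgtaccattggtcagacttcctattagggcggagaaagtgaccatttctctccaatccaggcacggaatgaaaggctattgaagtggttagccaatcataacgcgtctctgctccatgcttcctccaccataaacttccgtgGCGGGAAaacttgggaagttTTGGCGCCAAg
Pola1: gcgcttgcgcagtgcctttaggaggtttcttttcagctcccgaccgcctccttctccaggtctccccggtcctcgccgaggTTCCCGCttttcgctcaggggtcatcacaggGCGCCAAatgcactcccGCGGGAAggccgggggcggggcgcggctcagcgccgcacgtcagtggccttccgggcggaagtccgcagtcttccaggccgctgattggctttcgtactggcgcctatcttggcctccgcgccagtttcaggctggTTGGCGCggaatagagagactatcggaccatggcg
Rrm1: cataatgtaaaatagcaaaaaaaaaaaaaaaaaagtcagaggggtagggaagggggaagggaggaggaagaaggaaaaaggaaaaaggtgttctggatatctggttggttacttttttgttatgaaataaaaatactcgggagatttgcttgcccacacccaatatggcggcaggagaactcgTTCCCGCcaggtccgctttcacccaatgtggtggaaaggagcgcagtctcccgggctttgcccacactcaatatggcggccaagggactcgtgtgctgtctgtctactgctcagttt
Pcna: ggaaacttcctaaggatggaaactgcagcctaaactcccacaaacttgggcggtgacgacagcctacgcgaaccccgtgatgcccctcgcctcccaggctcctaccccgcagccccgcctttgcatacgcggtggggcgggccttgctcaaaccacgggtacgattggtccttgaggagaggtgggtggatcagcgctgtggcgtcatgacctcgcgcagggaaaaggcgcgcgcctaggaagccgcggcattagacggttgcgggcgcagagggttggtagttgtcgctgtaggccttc

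Among the licensing genes, whose products load and form the replicative helicase, 7 of the 8 tested members were lower at 24 h with the block and 1, Mcm4, without it. All 5 tested helicase subunits were among the 7. Mcm5 had the largest mean change of all measured members at 24 h. Its log2 intensity was 9.41, 10.99 and 10.76 at 0 h in experiments 1 to 3, fell to 8.36, 9.59 and 8.27 at 12 h, and read 7.60, 9.35 and 8.15 at 24 h. Experiment 2 was the highest at these times, and all 3 arrays of 24 h were below all 3 of 0 h. The change at 24 h was −2.02 ± 0.70 without the block, or 4.06-fold lower (adjusted p = 0.0877), and passed with it (SE 0.29, adjusted p = 1.92e-05). A dimmer probe set of Mcm5, below the filter, gave 0.52.

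Mcm3 read 9.25, 10.39 and 10.00 at 0 h and 7.85, 9.27 and 8.35 at 24 h. The array of experiment 2 at 24 h was just above that of experiment 1 at 0 h, so the groups overlapped although each experiment was lower. The change was −1.39 ± 0.62 (adjusted p = 0.216, and 0.000115 with the block), and a dimmer probe set of Mcm3 gave −1.56. Mcm2 went from 9.11, 9.82 and 9.53 to 7.79, 9.04 and 8.50, a change of −1.05 ± 0.39 (adjusted p = 0.123, and 1.88e-05 with the block). Mcm4 went from 9.61, 10.13 and 10.00 at 0 h to 9.14, 8.81 and 8.67 at 12 h and 9.44, 9.29 and 8.82 at 24 h. Its fall was −1.04 ± 0.22 at 12 h (adjusted p = 0.00391) and −0.73 ± 0.22 at 24 h (adjusted p = 0.0464), where experiment 1 was at −0.17. The 24 h call of Mcm4 was lost on deposited scaling (adjusted p = 0.0572), on median centring (0.0806), without a filter (0.0722), without the intensity trend (0.0532), without the 12 h arrays of experiments 1 and 3 (0.0541), without experiment 2 (0.208) and without experiment 3 (0.628). Mcm7 changed by −0.82 ± 0.28 at 24 h (adjusted p = 0.0804, and 0.00122 with the block).

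The loading factors Cdc6 and Cdt1 were both lower at 24 h with the block. Cdt1 read 9.08, 10.02 and 9.48 at 0 h and 8.22, 8.88 and 8.43 at 24 h, with no overlap. The change was −1.01 ± 0.32 for Cdt1 (adjusted p = 0.0581, and 0.000283 with the block) and −0.94 ± 0.36 for Cdc6 (0.130, and 0.00652). The largest drop of the Cdt1 mean fell between 18 h and 24 h, later than for any other tested member of the licensing group. In experiments 1 to 3 it ended at 24 h, 12 h and 18 h in turn. A dimmer probe set of Cdt1, also above the filter, dropped earlier. Its mean was 8.11 at 6 h, 6.94 at 12 h and 7.11 at 24 h. Orc6, a subunit of the origin recognition complex, read 9.76, 9.81 and 9.18 at 0 h and 9.54, 9.65 and 9.38 at 24 h, a difference of −0.06 ± 0.21 that did not pass. Geminin (Gmnn), which binds Cdt1 and blocks repeat licensing, was too dim to be tested and read 6.16, 7.24 and 6.96 at 0 h and 5.68, 5.46 and 4.33 at 24 h.

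Of the firing genes, Cdc45, which joins the helicase at a firing origin, was lower at 18 h and 24 h with the block. It read 8.01, 9.32 and 8.94 at 0 h and 7.40, 8.19 and 7.50 at 24 h, a change of −1.06 ± 0.63 (adjusted p = 0.401, and 0.0199 with the block). The kinase Cdc7 differed by −0.30 ± 0.24 and did not pass in either fit, with experiment 1 higher by 0.27 and the others lower.

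Of the 6 tested polymerase and primase genes, 1 was lower at 24 h and 4 with the block. Pola1, the catalytic subunit of polymerase alpha, and Prim1, the catalytic subunit of primase, make the primers of both strands, and both fell at 18 h. Pola1 read 8.0, 8.60 and 8.77 at 0 h, 8.0, 8.25 and 8.61 at 6 h, and 7.23, 7.62 and 7.71 at 12 h. All 3 experiments were lower at 12 h than at 6 h. At 24 h it read 7.18, 7.47 and 7.41, a fall of −1.10 ± 0.26 (2.15-fold, adjusted p = 0.00814), and at 48 h it was still at −0.86 ± 0.26 (adjusted p = 0.0381). The 24 h call of Pola1 was lost without experiment 2 (adjusted p = 0.0911) and without experiment 3 (0.269). Prim1 fell by 1.08 ± 0.29 at 18 h (adjusted p = 0.0210) and by 1.01 ± 0.29 at 48 h (0.0308), and at 24 h it was at −0.94 ± 0.29 (0.0508, and 0.0128 with the block).

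Their partner subunits had smaller mean differences, a contrast that was not tested. Pola2 read 8.28, 9.36 and 9.37 at 0 h and 7.99, 8.88 and 8.66 at 24 h. It was at −0.50 ± 0.35 at 24 h (adjusted p = 0.525, and 0.0328 with the block), while its dimmer probe set gave 0.23, and Prim2 was at −0.35 ± 0.33 with no call. Of polymerase delta, which copies the lagging strand, the catalytic Pold1 read 8.89, 9.84 and 9.55 at 0 h and 8.54, 9.58 and 9.21 at 24 h. That difference was small but alike in the 3 experiments, −0.32 ± 0.32 without the block (adjusted p = 0.716) and called with it (SE 0.11, adjusted p = 0.0372). The delta subunit Pold2 was at 0.07 ± 0.29, higher in experiment 1 by 0.64 and lower in the others.

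Pcna, the sliding clamp that holds the polymerases on DNA, was called at 6 h in both fits. With the block Mcm2, Mcm3, Fen1, Chaf1b and Dnmt1 were called at 6 h too. Pcna read 10.65, 10.53 and 10.37 at 0 h and 8.87, 9.30 and 9.32 at 6 h, with a wide gap between the groups. This was a fall of −1.36 ± 0.23 (2.56-fold, adjusted p = 0.000542), the only call at 6 h without the block, and without experiment 1 no member was called at 6 h. The lowest mean came at 12 h, where the arrays read 8.75, 8.79 and 8.82, a fall of −1.73 ± 0.23 (3.32-fold, adjusted p = 2.53e-05). By 24 h the arrays read 9.01, 9.28 and 8.54, by 42 h 9.52, 10.12 and 9.42, and by 48 h 9.23, 9.94 and 9.20. Every array at 42 h was above its own experiment at 12 h, and every one was below 0 h. The means at 12 h and 42 h were the lowest and the highest after 0 h, so these times were picked from the values themselves. The rise of 0.52 ± 0.23 from 24 h to 48 h had an unadjusted p of 0.0345 and did not pass adjustment (adjusted p = 0.999, and 0.206 with the block).

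The clamp is loaded by replication factor C. Of its 5 subunits none was called at any time without the block. With it Rfc5 was lower at 18 h and 24 h and Rfc2 at 18 h and 48 h. Rfc5 read 8.14, 8.95 and 9.11 at 0 h and 8.02, 8.34 and 7.93 at 24 h. It was at −0.64 ± 0.33 (adjusted p = 0.309, and 0.0157 with the block), but its dimmer probe set, also above the filter, gave 0.33. Rfc1, the large subunit, read 8.82, 8.66 and 8.84 at 0 h and 9.17, 8.33 and 8.69 at 24 h, with no common direction.

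**Figure D2:**
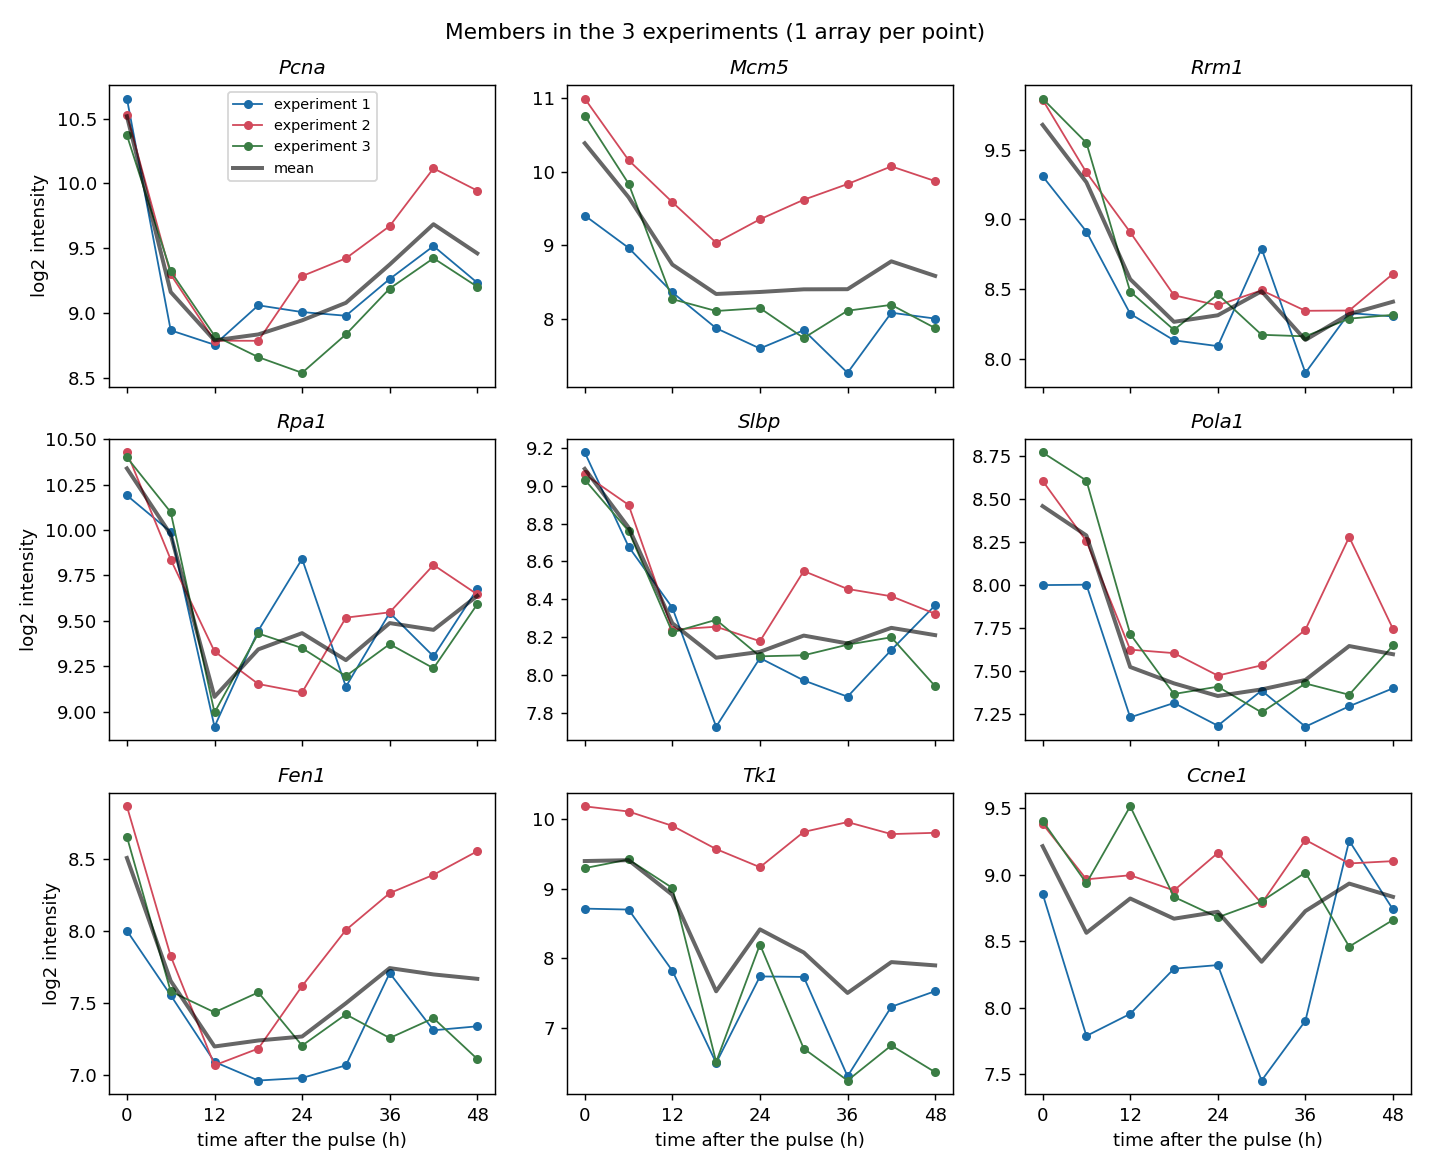
Log2 intensity (y axis, its range differs between panels) against time after the pulse (x axis, h) for 9 members, with 1 line per experiment, 1 array per point and the mean in grey. Pcna drops most before 6 h in all 3 experiments, and Pola1 from 6 h to 12 h. Rpa1 drops most from 6 h to 12 h in experiments 1 and 3, but before 6 h in experiment 2. Tk1 does not go below 9.31 in experiment 2, while it reaches 6.31 and 6.25 in experiments 1 and 3.

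Rpa1, the large subunit of the protein that coats single strands, read 10.19, 10.43 and 10.40 at 0 h and 9.99, 9.84 and 10.10 at 6 h. At 12 h it read 8.92, 9.33 and 9.0, a fall of −1.26 ± 0.18 (2.39-fold, adjusted p = 5.97e-05). Its step from 6 h to 12 h, −0.89 ± 0.18, was 1 of 2 among members that passed with the block in that interval (adjusted p = 0.0184, and 0.126 without it). Of all genes 0.372% were lower at 12 h than at 6 h with the block and 0.0177% without it, and neither member passed without the 12 h arrays of experiments 1 and 3. At 24 h Rpa1 was at −0.91 ± 0.18 (adjusted p = 0.00222), with −0.35 in experiment 1, −1.32 in experiment 2 and −1.05 in experiment 3, and the call was lost without experiment 2 (0.0589) or experiment 3 (0.172). The small subunit Rpa3 was at −0.44 ± 0.16 at 24 h (adjusted p = 0.110, and 0.0461 with the block).

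Fen1, the nuclease that trims Okazaki fragments, read 8.0, 8.87 and 8.66 at 0 h, 7.55, 7.83 and 7.58 at 6 h and 7.09, 7.07 and 7.43 at 12 h. It fell by 1.31 ± 0.36 at 12 h (adjusted p = 0.0248) and by 1.24 ± 0.36 at 24 h (adjusted p = 0.0381). In experiment 2 it climbed back to 8.56 at 48 h, while experiments 1 and 3 read 7.34 and 7.11. The 24 h call of Fen1 was lost without any of the experiments, with adjusted p from 0.0592 to 0.390. Lig1, the ligase that joins the fragments, dropped later. It read 8.54, 9.24 and 9.34 at 0 h, 8.71, 8.79 and 8.83 at 12 h and 8.37, 8.0 and 8.26 at 18 h, a fall of −0.83 ± 0.20 (adjusted p = 0.0108), and was at −0.39 ± 0.20 at 24 h with no call.

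Of the 3 tested genes of deoxynucleotide supply, 1 was lower at 24 h and 2 with the block. Rrm1, the large subunit of ribonucleotide reductase, had the smallest p of all members in the F test over time (adjusted p = 0.000129). It read 9.31, 9.86 and 9.87 at 0 h, 8.91, 9.34 and 9.55 at 6 h, 8.32, 8.91 and 8.48 at 12 h and 8.09, 8.38 and 8.46 at 24 h. The 6 h arrays overlapped those of 0 h, and the arrays of 12 h, 18 h, 24 h and 48 h all lay below them. The fall was −1.37 ± 0.21 at 24 h (2.58-fold, adjusted p = 0.000130) and −1.27 ± 0.21 at 48 h (adjusted p = 0.000252). A dimmer probe set of Rrm1, below the filter, gave 0.02 at 24 h. Rrm2, the small subunit of the enzyme, fell by 1.08 ± 0.33 at 12 h (adjusted p = 0.0461) and by 1.27 ± 0.33 at 18 h (0.0186), and was at −1.0 ± 0.33 at 24 h (0.0742, and 0.00224 with the block).

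Tk1, the salvage kinase for thymidine, differed between the experiments by more than any tested member other than Msh6. At 0 h it read 8.71, 10.18 and 9.29, and at 6 h it was close to that, at 8.70, 10.10 and 9.42. At 18 h it read 6.50, 9.57 and 6.52, and at 36 h 6.31, 9.95 and 6.25. Averaged from 18 h to 48 h its difference from 0 h was −1.53 in experiment 1, −0.48 in experiment 2 and −2.49 in experiment 3. With the block it was lower at 18 h (−1.87, adjusted p = 0.00758) and 48 h (−1.50, adjusted p = 0.0308) with no call at 24 h (−0.98, adjusted p = 0.175), and no call was made without the block. At 24 h itself the 3 experiments differed from 0 h by −0.97, −0.87 and −1.09. The difference between the experiments was not tested, since each experiment has 1 array per time point. Dut, which removes dUTP, was below the filter.

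Of the E2F and cyclin E group, 3 genes were tested, and none was called at 6, 12, 18, 24 or 48 h in either fit. E2f1 read 7.40, 6.80 and 6.52 at 0 h and 6.95, 7.20 and 7.47 at 24 h, and its difference of 0.30 ± 0.46 had an opposite sign in experiment 1. Cyclin E1 (Ccne1) read 8.86, 9.38 and 9.40 at 0 h and 8.32, 9.16 and 8.68 at 24 h. It was at −0.49 ± 0.42 (adjusted p = 0.627, and 0.267 with the block) although all 3 experiments were lower. Its kinase Cdk2 read 7.98, 8.18 and 7.82 at 0 h and 8.16, 7.76 and 7.73 at 24 h. It was at −0.11 ± 0.26 (adjusted p = 0.907), and this difference became 0.048 without experiment 2. E2f1 and Cdk2 each had a dimmer probe set of the opposite sign.

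Of the 5 tested genes that copy chromatin along with DNA, 3 were lower at 12 h and 5 with the block, and 1 and 3 at 24 h. Slbp, which binds histone messages in S phase, read 9.18, 9.06 and 9.03 at 0 h and 8.36, 8.24 and 8.23 at 12 h. The differences were −0.82, −0.82 and −0.81, the most even of the 11 members called at that time. At 24 h it read 8.09, 8.18 and 8.10, a fall of −0.97 ± 0.18 (1.95-fold, adjusted p = 0.00175), and it was at −0.88 ± 0.18 at 48 h (adjusted p = 0.00352). The 24 h call was lost without experiment 3 (adjusted p = 0.103). Chaf1a, the large subunit of the histone chaperone CAF-1, had the largest change of the group at 12 h. It read 7.64, 8.21 and 8.35 at 0 h, 6.88, 6.04 and 5.82 at 12 h and 7.53, 7.19 and 7.56 at 24 h. The fall was −1.82 ± 0.45 at 12 h (adjusted p = 0.0117) and −1.57 ± 0.45 at 18 h (0.0302), and the −0.64 ± 0.45 of 24 h did not pass in either fit.

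Its partner Chaf1b was at −0.46 ± 0.17 at 6 h (adjusted p = 0.132, and 0.0315 with the block) and fell by 0.59 ± 0.17 at 12 h (0.0346). Dnmt1, which copies DNA methylation, read 10.59, 11.11 and 11.05 at 0 h and 10.05, 10.42 and 10.52 at 6 h. Its change of −0.59 ± 0.22 at 6 h passed with the block (adjusted p = 0.000416, and 0.136 without it), and by 24 h it was at −0.64 ± 0.22. Uhrf1, which brings Dnmt1 to hemimethylated DNA, fell later, by 1.07 ± 0.26 at 18 h (adjusted p = 0.0108), and was at −0.19 ± 0.26 at 6 h.

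Chek1, the kinase that responds to stalled forks, read 7.29, 8.31 and 8.07 at 0 h and 6.56, 7.20 and 5.85 at 12 h, a fall of −1.35 ± 0.40 (adjusted p = 0.0340). Its step from 6 h to 12 h, −1.08 ± 0.40, was the other that passed with the block (adjusted p = 0.0498, and 0.753 without it). At 24 h it was at −1.27 ± 0.40 (0.0550, and 0.000810 with the block). The repair gene Brca1 was lower at 18 h and 48 h with the block, at −1.27 ± 0.43 (adjusted p = 0.0376) and −1.51 ± 0.43 (0.0135). The mismatch repair gene Msh6 stood at 0.57 ± 0.44 at 24 h with no call, and 1 array set that value. It read 7.81, 7.19 and 5.22 at 0 h and 7.82, 7.31 and 6.80 at 24 h, so experiments 1 and 2 hardly moved.

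**Figure D3:**
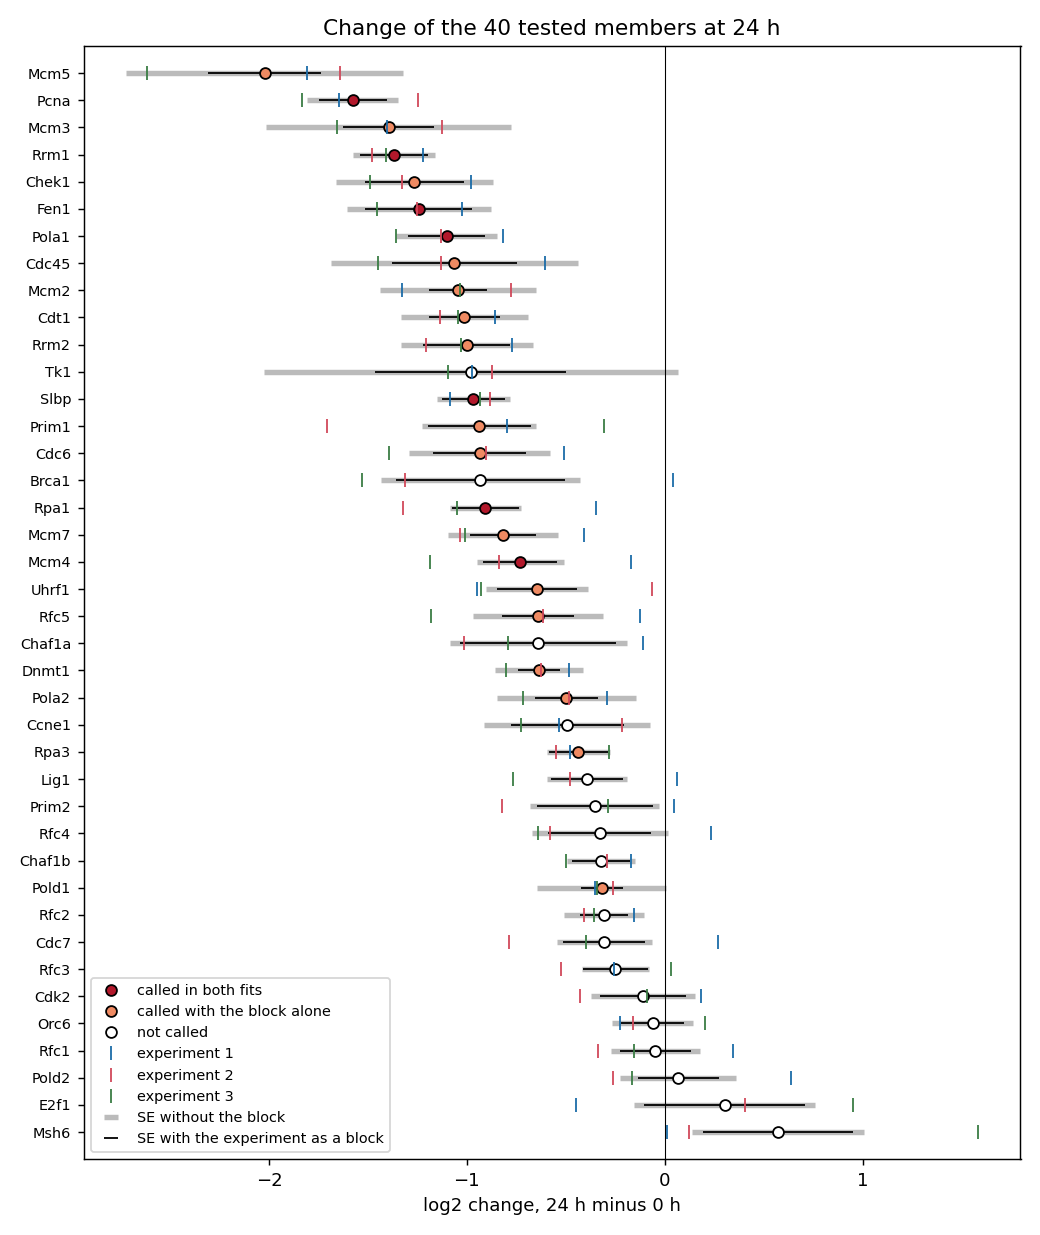
Log2 change at 24 h against 0 h (x axis) of the 40 tested members (rows), with the mean as a circle, the 3 experiments as coloured ticks, a grey bar for 1 SE without the block and a black bar for 1 SE with it. Dark red circles mark the 7 members called in both fits and orange circles the 16 called with the block alone.

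The time of the fall was described by the pair of neighbouring time points between which the mean dropped most. For 12 of the 51 members this was 0 h to 6 h, for 24 it was 6 h to 12 h, for 7 it was 12 h to 18 h, and for 8 it was later. For the 43 measured G2 and mitosis genes it was 1, 5 and 36 in the same 3 intervals, and 1 later. By 6 h Dnmt1 had made 91.3% of its fall to the lowest mean, Pcna 78.4%, Chaf1b 78.4%, Mcm2 72.7% and Fen1 65.2%. By contrast Rpa1 had made 28.9% of it, Rrm1 26.7%, Rrm2 21.7%, Chek1 20.0%, Chaf1a 15.7% and Pola1 15.5%. For several of these members the experiments differed. In experiments 1 to 3 the largest drop ended at 12, 6 and 6 h for Fen1 and at 12, 6 and 12 h for Rpa1. It ended at 36, 6 and 12 h for Rrm1, at 24, 12 and 12 h for Chek1, and at 36, 12 and 12 h for Chaf1a. Pcna, Mcm2, Chaf1b and Dnmt1 had their largest drop before 6 h in each of the 3 experiments, and Pola1 and Rrm2 had theirs between 6 h and 12 h in each. These are descriptions of means that include the 12 h arrays with another description and the experiment 1 arrays at 18 h and 30 h. Timing counts without these arrays are not given, and the difference between the lists was not tested.

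**Figure D4:**
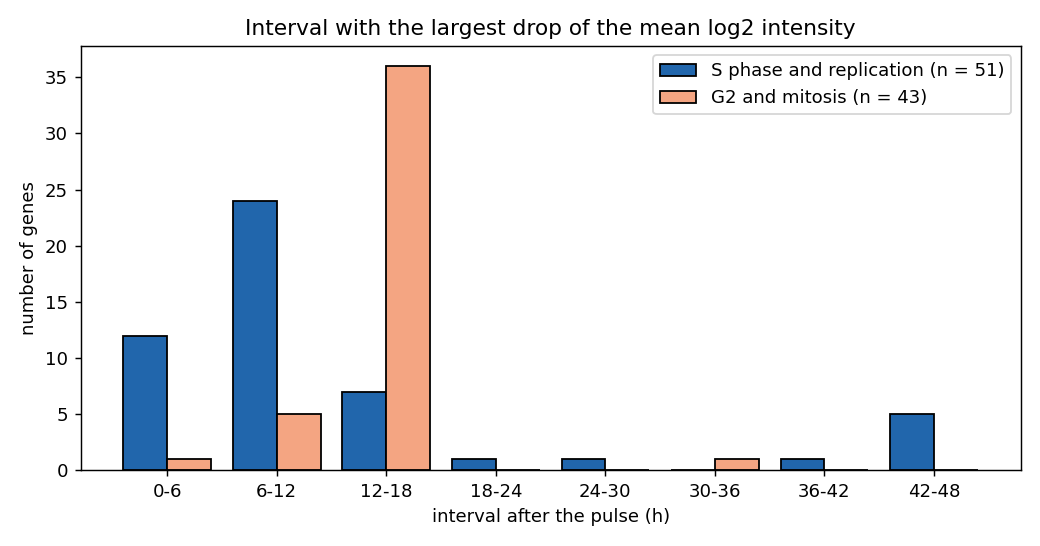
Number of genes (y axis) by the interval, in h after the pulse (x axis), in which the mean log2 intensity dropped most, for 51 S phase and replication genes and 43 G2 and mitosis genes. The tallest bar of the replication genes is 6 h to 12 h (24 genes), and that of the G2 and mitosis genes is 12 h to 18 h (36 genes).

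The medians of the lists show the same order in each experiment. At 12 h the median change of the 51 members was −0.59, −0.61 and −0.66 in experiments 1 to 3, while that of the G2 and mitosis genes was −0.18, −0.29 and −0.51. At 18 h the members were at −0.41, −0.78 and −0.84 and the G2 and mitosis genes at −0.98, −1.16 and −2.17, so the mitotic genes were by then the lower of the lists. Later values of the members were spread by experiment, with −0.35 in experiment 1, −0.48 in experiment 2 and −0.81 in experiment 3 at 48 h. No member was called between 18 h and 12 h or between 48 h and 24 h by limma in either fit. At an unadjusted p below 0.05 there was 1 member in each of the 2 comparisons without the block, and 3 and 2 with it. Of all tested genes 3.38% and 4.73% were at that level without the block and 9.68% and 11.8% with it. After adjustment 0% and 0.142% of all genes were lower at 18 h than at 12 h without and with the block, and 0.0354% and 0.443% at 48 h than at 24 h.

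**Figure D5:**
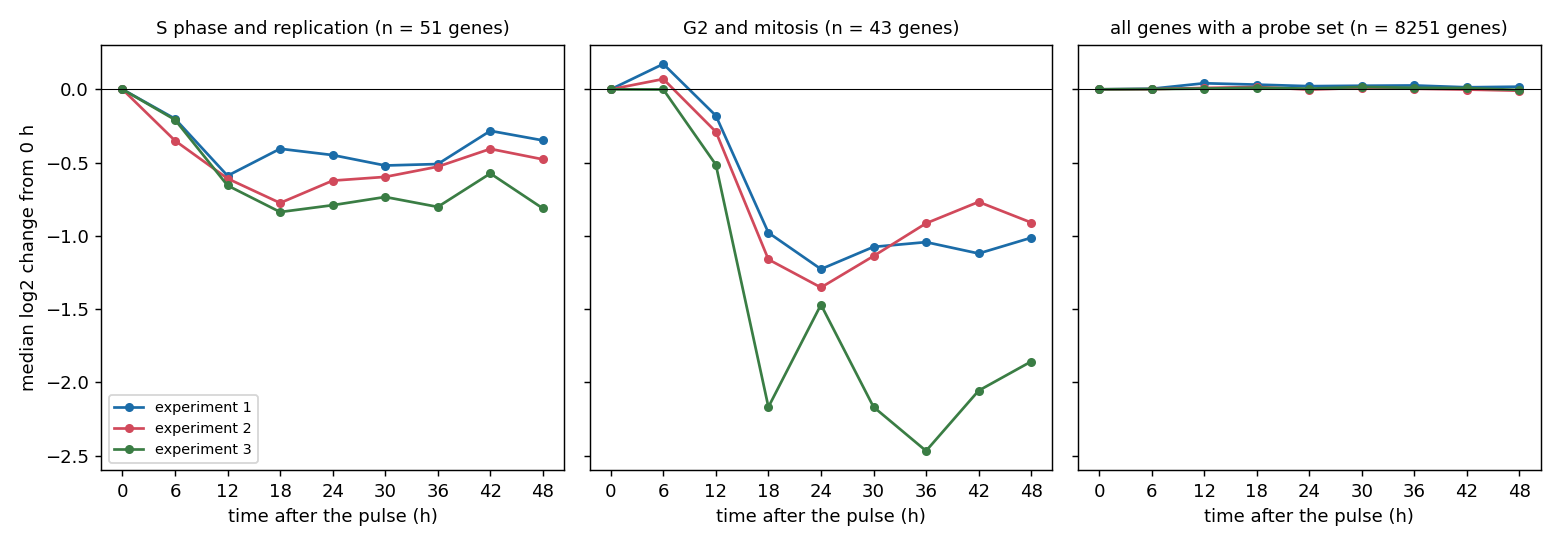
Median log2 change from 0 h (y axis) over time after the pulse (x axis, h) in each experiment, for the 51 measured members, 43 G2 and mitosis genes and all 8251 measured genes. The members reach −0.59 to −0.66 by 12 h, the G2 and mitosis genes drop mainly between 12 h and 18 h, and all genes stay near 0.

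A 24 h rhythm was tested on the 24 arrays from 6 h to 48 h. No member was called in either fit, and 0% of all genes were. Since no gene passed, the lack of calls does not show that the members have no rhythm. The 24 arrays include the experiment 1 arrays at 18 h and 30 h and the 12 h arrays with another description. Values without them are not given. At an unadjusted p below 0.05 limma gave 2 of the 40 members without the block and 6 with it, where 3.4% and 10.7% of all tested genes were at that level. The smallest p belonged to Chaf1a, with an amplitude of 0.58 (unadjusted p = 0.00839, adjusted p = 1, and 0.315 with the block).

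Probe sets of the same gene did not always go the same way. At 24 h the dimmer probe set differed in sign from the brightest for 10 members, namely Orc2, Mcm5, Pola2, Rfc1, Rfc5, Lig1, Rrm1, Tk1, E2f1 and Cdk2. Of these dimmer sets only those of Pola2 and Rfc5 passed the intensity filter. The probe sets of Cdt1 (−1.01 and −1.15) and Mcm3 had the same sign.

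Other genes of the pathway were counted in lists, beside the 2.91% of all genes that were lower at 24 h and the 8.36% with the block. Of 20 tested genes of other fork and origin proteins, 0 passed at 24 h by limma, and 2 were lower and 1 higher with the block. The smallest p was that of Topbp1, a checkpoint and firing factor, at −0.77 ± 0.24 (adjusted p = 0.0524), which had fallen by 1.02 ± 0.24 at 12 h (adjusted p = 0.00831). The histone chaperone Nasp fell by 1.23 ± 0.35 at 12 h (adjusted p = 0.0299). Both 12 h falls include the arrays of experiments 1 and 3 with another description, and values without them are not given. Of 17 tested genes of E2F, RB and G1/S control, 1 was lower at 24 h and 4 with the block. It was the CDK inhibitor Cdkn2c, at −0.54 ± 0.14 (adjusted p = 0.0194). With the block Ccna2, the cyclin of S phase and G2, was at −1.35 (adjusted p = 0.00831) and the RB relative Rbl1 at −0.78 (adjusted p = 0.00843).

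Of 19 tested genes of nucleotide synthesis, 2 were lower and 1 higher at 24 h, and 6 and 2 with the block. Mthfd2, a mitochondrial enzyme of folate metabolism, fell by 1.16 ± 0.33 (adjusted p = 0.0355), and Samhd1, which degrades deoxynucleotides, fell by 0.78 ± 0.20 (0.0170). Cmpk1, a pyrimidine nucleotide kinase, rose by 0.38 ± 0.10 (adjusted p = 0.0265). Of 33 tested G2 and mitosis genes 7 were lower at 24 h and 28 with the block. The largest of the 7 falls were those of the condensin gene Smc2 (−1.50 ± 0.37, adjusted p = 0.0140) and of Cks2, a partner of cyclin-dependent kinases (−1.45 ± 0.40, 0.0275).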

How the data were processed

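Each of the 27 arrays was deposited as 1 column of linear intensities for 12488 probe sets. How the authors computed them is not stated in the labels used. The deposited intensities appear scaled, since every array has nearly the same trimmed mean. Controls (66 probe sets) were left out, log2(intensity + 12.1) was taken, 12.1 being the 10th percentile of all values, and arrays were quantile normalized. Probe sets with a mean at or above the 40th percentile (7453 of 12422) were tested with limma 3.58.1 in R 4.3.3, with the trend option of eBayes and Benjamini-Hochberg adjustment over all 7453. A gene is its brightest probe set. Symbols come from the platform annotation, with 10855 probe sets of 1 symbol, 396 of several and the rest without, and 10839 matched RefSeq by gene ID. Precision is limited by the number of arrays, 3 at each time.

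The main fit had no block. The labels number the experiments, and deviations from the time means were correlated within an experiment. Over 36 pairs each, r ran from 0.426 to 0.642, 0.349 to 0.599 and 0.135 to 0.482 in experiments 1 to 3. It ran from −0.541 to 0.219 over 216 pairs of different experiment and time. The 3 deviations at each time sum to 0, which by itself lowers r between experiments, so this range is no neutral baseline. Blocked values are printed too because of the correlation within experiments. The scripts were tested on simulated data. The members, the other lists, the tests and the arrays left out were chosen with earlier results of these data known. Fits that join the block with left-out arrays were added after seeing the data. Genes were named by a rule: called members with the largest 24 h change, the smallest F test p in each role, members whose probe sets disagree, and up to 4 genes of each other list. Others named in passing were chosen after their values were seen. Alternatives were other scalings, pseudocounts of 1 and 50, no filter or one at the 60th percentile, no trend, and left-out arrays.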

Additional observations from a re-analysis of the deposited data

How the results depend on the processing

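The counts of members called lower at 6, 12, 18, 24 and 48 h and in the F test were 1, 11, 12, 7, 6 and 6. Other scalings, pseudocounts of 1 and 50, no filter and no intensity trend kept each of these counts within 1.5 times. The filter at the 60th percentile, which tests fewer genes, gave 5 at 12 h and 7 at 18 h. With the experiment as a replicate block the counts were 6, 18, 26, 23, 24 and 27, with 2 at 12 h against 6 h. Leaving out 1 experiment gave 0 to 1, 2 to 7, 3 to 10, 2 to 8, 0 to 7 and 0 to 6. With the block it gave 3 to 5, 14 to 20, 14 to 26, 12 to 20 (15 without experiment 3), 8 to 19 (13 without experiment 2) and 6 to 23, and 0 to 1 at 12 h against 6 h. Without the 12 h arrays of experiments 1 and 3 there were 2 members at 12 h, where 1 array is left and is assumed to vary like the other groups. With the block these arrays left out gave 6, 14, 26, 22, 24 and 25. The arrays of experiment 1 at 18 h and 30 h left out with the block gave 6, 20, 25, 22, 25 and 25, and 2 at 12 h against 6 h. The difference of Cdk2 at 24 h, −0.11, ran from −0.26 without experiment 1 to 0.048 without experiment 2, and it was the same with the block and called in neither fit. The cause of these changes was not tested beyond the fewer arrays or genes named. The 3 arrays per time point limit what can be called, and dim probe sets below the filter were not tested.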

Other observations

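Several replication genes too dim for the test had large differences between 24 h and 0 h, given as values with no test. Hells, a chromatin remodeller of the SNF2 family, read 7.0, 7.86 and 7.71 at 0 h in experiments 1 to 3 and 6.18, 6.28 and 6.52 at 24 h, so every array was lower. Of genes that are no members, the mean difference was −1.80 for Mcm10, a replication initiation factor. It was −1.36 for the histone chaperone Asf1b and −0.99 for the nuclease Exo1. These falls were the largest among the untested genes of the other fork and origin list. Gins2, Bard1 and Rad54l, also untested, were higher at 24 h than at 0 h. The median change of the 27 measured genes of that list was −0.11 at 24 h.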
